A study of Mus musculus with 32 samples.

Results

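Broad H3K27me3 domains of non-growing mouse oocytes were the autosomal peaks of at least 50000 bp in the authors' H3K27me3 peak list of wild-type (WT) non-growing oocytes at postnatal day 6 (P6). There were 535 of them among 71293 autosomal peaks (0.750%), and together they spanned 41.0 Mb of the 501.9 Mb under autosomal peaks of that list (8.18%). The narrowest domain was 50029 bp wide, with a signal per base of 13.5, and the widest peak left out was 49995 bp wide, with 14.1. The domains were thus selected on their measured width in this list, so their width and signal there are described only. Coverage was compared in the other 15 lists. The genes and start sites inside the domains, the width classes and the signal per base rest on the selecting list.

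The study profiled 2 histone marks by CUT&Tag, a method that tethers a transposase to an antibody bound at the mark and sequences the fragments it cuts out. It holds 32 samples in 16 groups of 2, and 1 peak list was deposited for each group. WT oocytes were taken from ovaries at the fetal stage E18.5, at day 1 (P1), as non-growing oocytes at P6 and as growing oocytes at day 7 (P7), each for H3K27me3 and for H2AK119ub. The PRC1ctrl oocytes were Ring1-/-; Rnf2F/+; Ddx4-Cre, so that these controls also lacked Ring1, and the label of the PRC1cKO oocytes reads Ring1-/-; Ring1F/-; Ddx4-Cre. That label names Ring1 where its control has Rnf2, so the floxed gene was not settled here and the group is called by its name. Both PRC1 groups were profiled for H3K27me3 at P6 and P7. PRC2ctrl oocytes were EedF/+; Ddx4-Cre and PRC2cKO oocytes EedF/-; Ddx4-Cre, profiled at P6 for both marks. Ddx4-Cre is a recombinase driven from a germ cell promoter. The labels do not say whether the 2 samples of a group came from separate animals, and with 1 list per group no value below has a replicate check. Peak lists hold no expression, so neither the labelled cell type nor the deletions could be checked.

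Polycomb repressive complex 2 (PRC2), with its subunit Eed, places the methyl groups of H3K27me3 on histone H3, and Polycomb repressive complex 1 (PRC1), with the ligases Ring1 and Rnf2, places the ubiquitin of H2AK119ub on histone H2A. Both marks lie over genes that are kept silent, above all developmental regulators with CpG-rich promoters. Non-growing oocytes are the resting cells of primordial follicles, and some of them are recruited each day to grow.

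Sequences upstream of 4 start sites in the domains are shown because they cover the range of behaviour among the domains. Tet3 encodes a dioxygenase that oxidizes methylated cytosine, and its domain was at most 9.7% covered in the H3K27me3 lists of P7. The domains of Snai1 and Gsc, transcription factor genes of the embryo, were 39.7% and 52.3% covered in PRC1ctrl oocytes at P7 and 85.9% and 93.3% in PRC1cKO oocytes. That of En1, a homeobox gene of the midbrain and hindbrain, stayed in 1 piece in all 10 H3K27me3 lists. Each line gives the 250 bases before the start site from RefSeq (GRCm38.p6), 5′ to 3′ on the gene's strand, with every CpG in capitals.
Tet3 (chromosome 6, 83441679 to 83441928, minus strand): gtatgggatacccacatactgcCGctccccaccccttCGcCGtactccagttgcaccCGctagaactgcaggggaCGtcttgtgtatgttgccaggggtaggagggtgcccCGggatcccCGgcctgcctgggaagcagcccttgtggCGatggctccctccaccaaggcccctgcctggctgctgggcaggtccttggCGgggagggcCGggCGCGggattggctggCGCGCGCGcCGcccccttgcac
Snai1 (chromosome 2, 167537945 to 167538194, plus strand): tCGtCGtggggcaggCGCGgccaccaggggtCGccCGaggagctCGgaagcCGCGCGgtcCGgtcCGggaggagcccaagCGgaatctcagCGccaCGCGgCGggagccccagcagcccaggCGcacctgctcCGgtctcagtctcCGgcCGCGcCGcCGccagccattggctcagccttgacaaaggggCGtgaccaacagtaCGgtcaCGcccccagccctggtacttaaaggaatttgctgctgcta
Gsc (chromosome 12, 104473237 to 104473486, minus strand): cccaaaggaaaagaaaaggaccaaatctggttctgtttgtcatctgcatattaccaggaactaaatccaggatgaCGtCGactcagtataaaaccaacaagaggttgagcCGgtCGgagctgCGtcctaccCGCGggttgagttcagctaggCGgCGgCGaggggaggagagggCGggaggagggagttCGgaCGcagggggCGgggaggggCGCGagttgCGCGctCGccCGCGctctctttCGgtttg
En1 (chromosome 1, 120602237 to 120602486, plus strand): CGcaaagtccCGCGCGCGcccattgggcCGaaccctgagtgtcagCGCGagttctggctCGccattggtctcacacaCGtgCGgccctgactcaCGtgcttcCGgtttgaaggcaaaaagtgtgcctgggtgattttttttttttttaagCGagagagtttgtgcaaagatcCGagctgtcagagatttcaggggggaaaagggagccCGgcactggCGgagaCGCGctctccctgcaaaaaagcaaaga
The Tet3 sequence lies before a listed start site within the annotated gene body, not at its outermost 5′ end. It held 17 CpG, that of Snai1 27, that of Gsc 22 and that of En1 19. All 4 start sites lay under an H3K27me3 peak in the E18.5, P1 and P6 lists, knockouts included. At P7 the start of Tet3 lay outside the peaks in WT, PRC1ctrl and PRC1cKO oocytes alike, whereas the starts of Snai1 and Gsc lay outside the peaks of PRC1ctrl only. The En1 start site was covered in every list.

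Hox clusters also carry microRNAs, and these are shown because members of 1 seed family sat in different domains. Mature sequences from RefSeq (GRCm38.p6) are given 5′ to 3′ with the seed, bases 2 to 8, in capitals.
miR-10a-5p, in the Hoxb domain: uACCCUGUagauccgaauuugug
miR-10b-5p, in the Hoxd domain: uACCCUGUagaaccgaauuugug
miR-196a-5p, in the Hoxb and in the Hoxc domain: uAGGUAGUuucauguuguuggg
miR-10a and miR-10b share their seed, and the hairpins miR-196a-1 and miR-196a-2 give the same mature strand. Of the 919 autosomal hairpins in the table, 42 lay inside a domain (4.57%), among them miR-208a and miR-208b of the cardiac myosin genes Myh6 and Myh7, miR-9, miR-34a, miR-375 and miR-203.

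The domains had a median width of 64.3 kb (quartiles 56.0 and 84.3 kb), against 4.34 kb for all autosomal peaks. They reached 276.4 kb, 87 were at least 100 kb wide and 7 at least 200 kb. The median signal per base, in the authors' units, was 14.6, against 5.36 for all peaks and 10.7 for the 3086 peaks of 20 to 50 kb. A domain over part of Gas8 (chromosome 8, 123535783 to 123625868), a gene of the cilium, stood far above the rest at 96.8. Chromosome 5 held 60 domains and chromosome 4 held 55, but chromosome 3, with 4953 peaks, held 6.

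Some domains were neighbours. With gaps of up to 5 kb between them, 65 domains formed 30 chains, 5 of them of 3 domains. The longest chain ran over 626.6 kb of chromosome 8 (120726545 to 121353193), from Irf8, a transcription factor of blood cells, to the forkhead genes Foxf1, Foxc2 and Foxl1. Its WT H3K27me3 peaks covered 97.2% at E18.5, 97.2% at P1, 98.9% at P6 and 98.0% at P7. In PRC1ctrl and PRC1cKO the share was 91.9% and 93.0% at P6 and 93.8% and 97.6% at P7, and in PRC2ctrl and PRC2cKO it was 99.1% and 95.3%. At least 91.9% of the chain was thus covered in all 10 lists. The pieces ranged from 2 in PRC2ctrl to 8 in WT E18.5 and in PRC1ctrl P6, with 3 in WT P6. H2AK119ub covered 99.8% at E18.5, 99.9% at P1, 98.5% at P6 and 75.9% at P7, where it fell into 84 pieces, and 95.2% and 90.3% in PRC2ctrl and PRC2cKO.

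**Figure D1:**
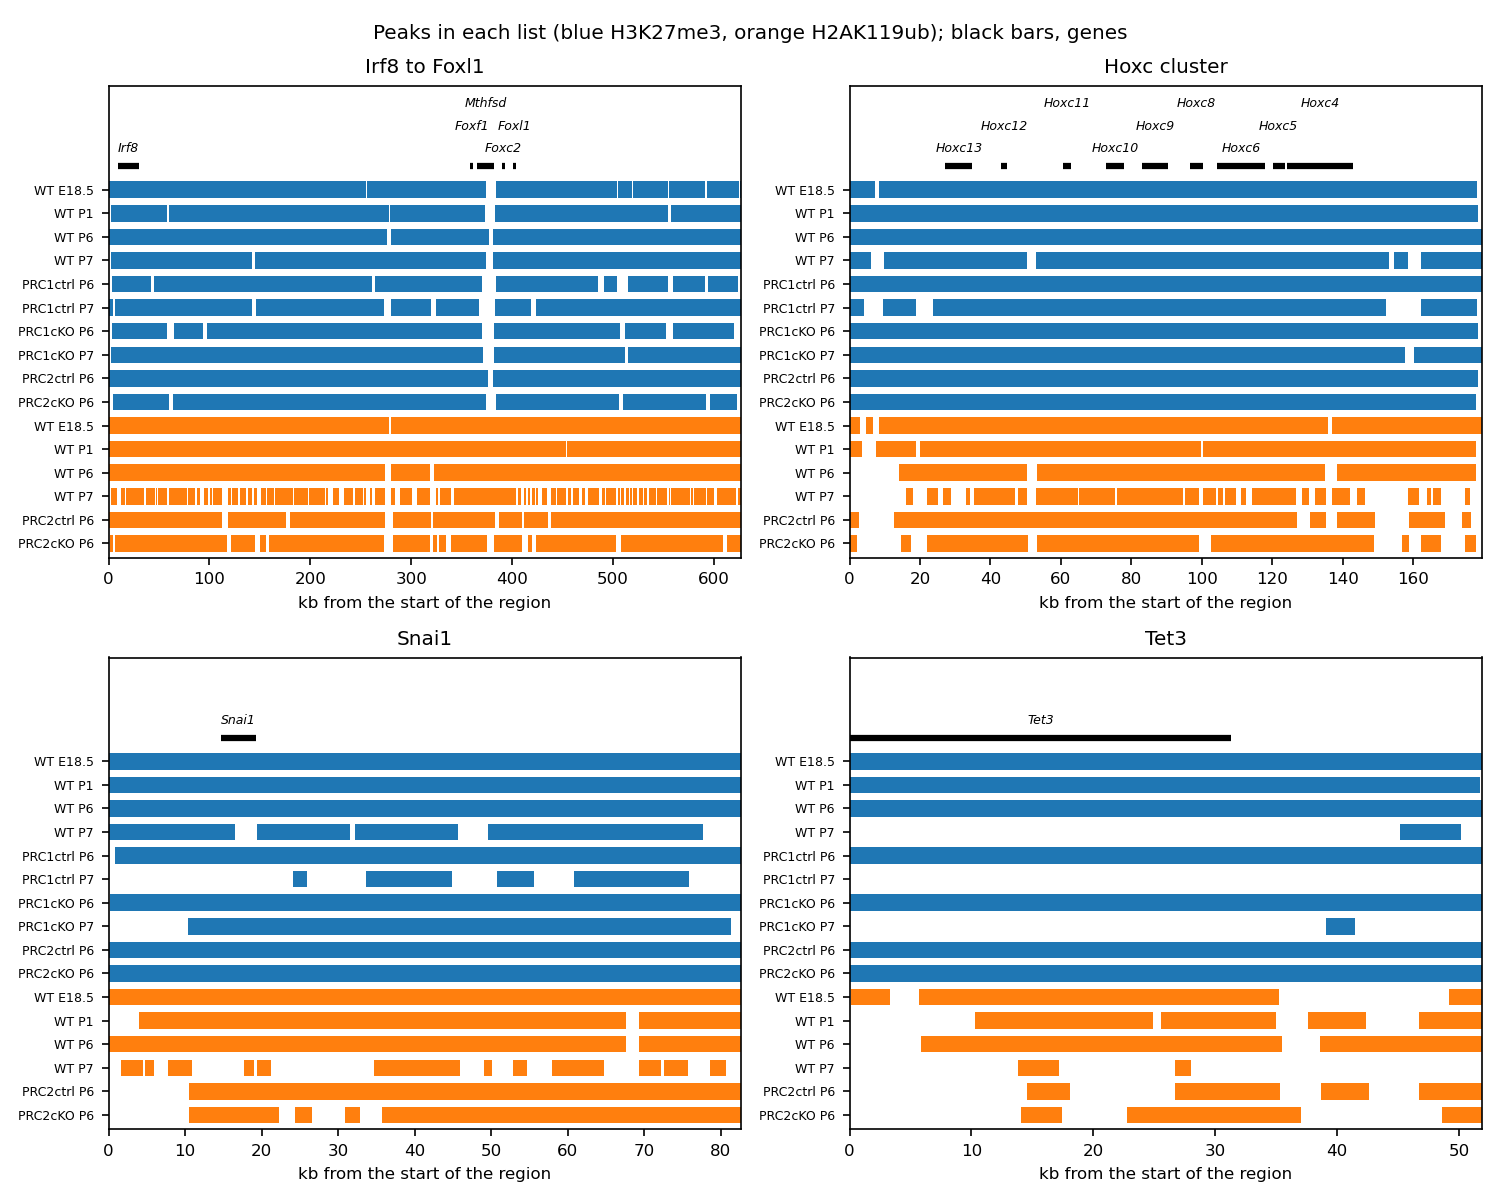
Peaks of each list (rows, named by genotype and stage) along 4 regions, in kb from the start of the region. Blue bars are H3K27me3 peaks, orange bars H2AK119ub peaks and black bars genes. The Snai1 domain, for example, is in 4 pieces in WT P7 and PRC1ctrl P7 and in 1 in PRC1cKO P7, and the Tet3 domain is nearly empty in all 3 H3K27me3 lists of P7.

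Lists of embryonic transcription factor genes had larger shares inside the domains than all genes, although most domains touched none of them. Of 20665 autosomal protein-coding genes, 750 were touched by a domain (3.63%) and 415 lay wholly inside one (2.01%). By list, 22 of 39 Hox genes, 12 of 41 forkhead genes, 5 of 15 T-box genes, 2 of 18 Sox genes and 44 of 190 further developmental transcription factor genes lay inside. Over these 5 lists the count was 85 of 303 genes (28.1%), and 72 of the 535 domains (13.5%) touched one. Genes of developmental signalling (ligands, receptors and effectors) were inside in 9 of 61 cases, among them the ligand genes Shh, Ihh, Fgf3, Fgf4, Wnt3a, Wnt7b, Wnt10a and Wnt11. Neuronal channels and receptors were inside in 6 of 50 cases, with the potassium channel genes Kcna1, Kcna5, Kcna6 and Kcnc1.

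The Hox clusters differed among themselves. All 10 Hoxb and all 9 Hoxc genes lay inside domains, 3 of 9 Hoxd genes did, and none of the 11 Hoxa genes. Hoxa was under H3K27me3 at P6 as well, but in 4 peaks, the widest of 47.1 kb, just below the width that defines a domain.

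Genes of the oocyte itself were near the background. None of 33 genes of oocyte growth and maternal effect lay inside a domain (exact 95% interval 0 to 10.6%), and Tet3 and Oas1e were touched (6.06%, against 3.63% of all genes). None of 37 Polycomb genes and partners lay inside, and none of 1104 olfactory receptor, 352 vomeronasal receptor, 80 ribosomal protein and 64 histone genes. Among 109 keratin genes 8 were inside, and of 57 clustered protocadherins 18 were touched and none was inside. Of genes whose imprinting depends on H3K27me3, Inhbb and Sox21 were inside (2 of 25), and of classical imprinted genes Cdkn1c and Dio3 (2 of 37). Markers of granulosa and stroma cells were inside for Inhbb and Wnt4 (2 of 26), blood and endothelial markers for none of 19. Domains without any protein-coding gene numbered 84, and 76 lay within the body of 1 gene.

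**Figure D2:**
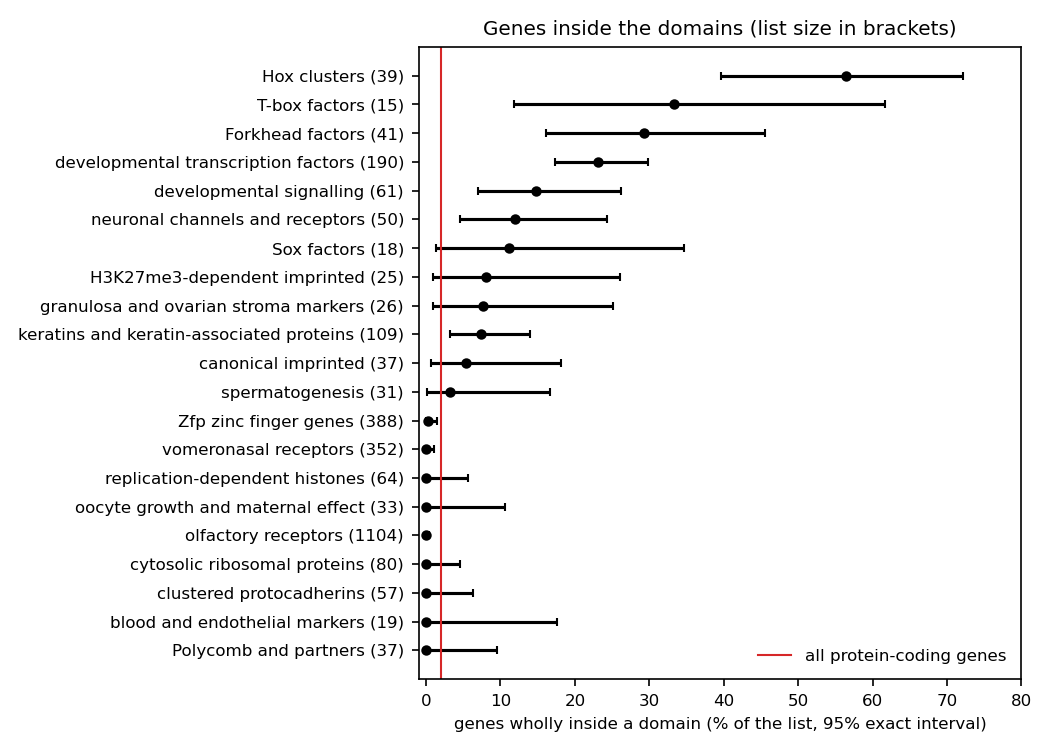
Share of each gene list (rows, with the number of autosomal genes) that lay wholly inside a domain, in percent, with exact Clopper-Pearson 95% intervals that cover counting error only. The red line is the 2.01% of all protein-coding genes. Hox, T-box, forkhead and other developmental transcription factor genes lie far to the right of it.

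Start sites in the domains were CpG-rich compared with those in other P6 peaks. The RefSeq table held 20085 start sites of autosomal protein-coding genes, 505 of them in domains. The ratio of observed to expected CpG in the RefSeq windows around them had a median of 0.548 in domains, 0.408 in other P6 peaks (6043 sites) and 0.682 outside the peaks (13537 sites). A ratio of at least 0.6 was reached by 45.9%, 32.3% and 56.5% of them.

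Nearly all domains were under H3K27me3 peaks at every stage and in every genotype. A domain was called kept in a list when peaks of that list covered at least 50% of it. In WT oocytes 99.4% of the domains were kept at E18.5 (532 of 535, exact 95% interval 98.4 to 99.9), 99.4% at P1 and 97.9% at P7. The share of all autosomal P6 peaks kept was 64.2%, 69.9% and 61.8% in these lists. PRC1ctrl oocytes kept 99.3% at P6 (background 68.0%) and 94.8% at P7 (background 52.4%), and PRC1cKO oocytes 98.7% (background 64.0%) and 95.3% (background 57.8%). PRC2ctrl kept all 535 domains (background 76.3%) and PRC2cKO 99.4% (background 54.2%). In all 10 H3K27me3 lists together, 481 domains (89.9%) were kept (background 17.4%). Among peaks of 20 to 50 kb the kept share ranged from 84.8% (PRC1ctrl P7) to 99.8% (PRC2ctrl P6), so high kept shares were not limited to the domains. Whether the width or signal of a peak accounts for its being kept was not tested.

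**Figure D3:**
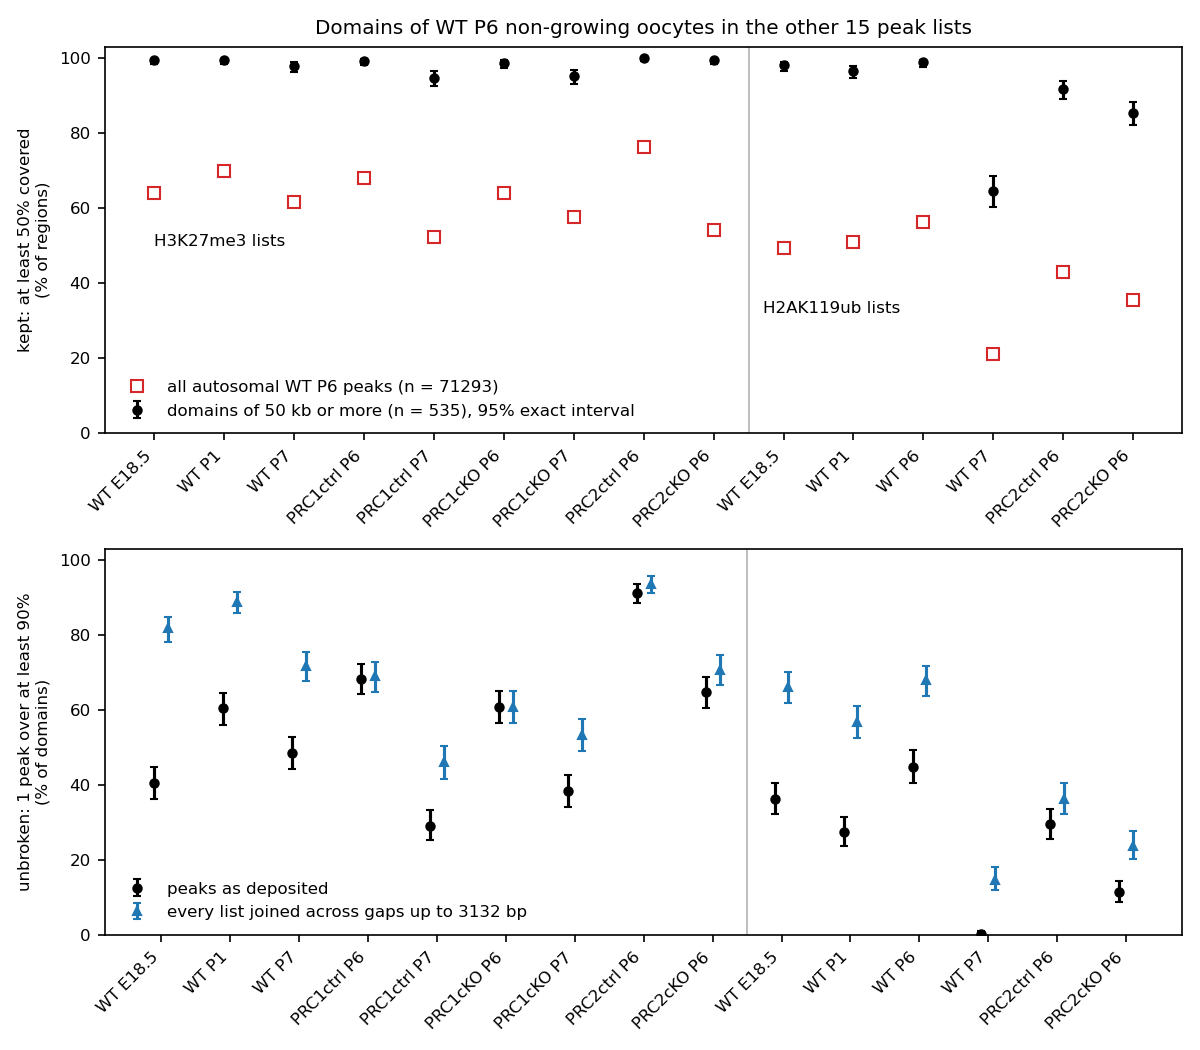
Top, percent of the 535 domains (black, exact 95% interval) and of all 71293 autosomal WT P6 peaks (red squares) kept in each of the other 15 lists. Bottom, percent of domains unbroken, with peaks as deposited (black) and with every list joined across gaps up to 3132 bp (blue); H3K27me3 lists are left and H2AK119ub lists right of the grey line.

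A few domains were lost when oocytes began to grow. In WT P7 growing oocytes 11 domains were not kept. All 11 were among the 28 not kept in PRC1ctrl P7, and 6 of them were also not kept in PRC1cKO P7. Of all autosomal P6 peaks, 61.8%, 52.4% and 57.8% were kept in these 3 lists, and their overlap was not counted. The domain at Zfhx3, which encodes a large homeobox and zinc finger protein (chromosome 8, 108750721 to 108816507), showed the sharpest change. Its covered share was 100% at E18.5 and P1, 99.6% in PRC1ctrl P6, and 100% in PRC1cKO, PRC2ctrl and PRC2cKO at P6. It was 0% in WT, PRC1ctrl and PRC1cKO at P7. H2AK119ub there covered 100% at E18.5, 86.2% at P1, 80.6% at P6 and 3.3% at P7, and 69.6% and 32.7% in PRC2ctrl and PRC2cKO.

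The domain over the 5′ part of Tet3 and the sequence before it (chromosome 6, 83425882 to 83477758) behaved in the same way. H3K27me3 covered 100%, 99.7% and 9.7% of it in WT E18.5, P1 and P7. It covered 100% in PRC1ctrl P6, PRC1cKO P6 and PRC2cKO P6 and 99.9% in PRC2ctrl P6, but 0% and 4.7% in PRC1ctrl P7 and PRC1cKO P7. H2AK119ub covered 68.4%, 65.5%, 82.5% and 9.1% at the 4 WT stages, and 40.9% and 40.4% in PRC2ctrl and PRC2cKO. The H3K27me3 shares thus separated P7 from all earlier lists and not knockout from control.

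A domain without a gene near Slc39a11 (chromosome 11, 113095554 to 113149003) was covered over 98.7% at E18.5 and 100% at P1, and 0% at WT P7 and PRC1ctrl P7 and 8.5% in PRC1cKO P7. At P6 it was covered over 75.4% and 77.1% in PRC1ctrl and PRC1cKO and 89.3% and 87.4% in PRC2ctrl and PRC2cKO. Other domains were low in WT P7 but less so in PRC1cKO P7. One at Rassf5 and Ikbke, genes of immune signalling (chromosome 1, 131207639 to 131261979), was covered over 17.8% in WT P7, 0% in PRC1ctrl P7 and 55.1% in PRC1cKO P7. Another in Skap1, a T cell adaptor gene (chromosome 11, 96516131 to 96572396), had 27.7%, 22.7% and 87.4%. Before P7, both were covered over 72.9% or more in every H3K27me3 list.

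Start sites in domains were covered in most lists. Of the 505, 18 had no peak at WT E18.5 and 15 at P1, against 21.2% and 16.9% of start sites over all P6 peaks. In WT P7 10 had none (background 13.3%), and those of Tet3, Faah, Erfe, Gucy2g, Ifna11, Ifnk, Med13l and Oas3 had none at any of their listed starts. PRC1ctrl P7 left 45 uncovered (background 23.6%), among them all listed starts of Snai1, Gsc, Foxp4, Hoxd3, Dio3, Fgf21 and Tet3. PRC1cKO P7 left 32 (background 23.1%), with Tet3 but without the other 6 of these genes. All listed starts were uncovered for 37 genes in PRC1ctrl P7 and for 26 in PRC1cKO P7. Erfe, Kctd15, Lama5, Lrp1, Med13l and Zfp503 were among those uncovered in both. Klf9, Gadd45g, Tle3 and Mgll were among those uncovered in PRC1cKO P7 but not in PRC1ctrl P7. At P6, PRC1ctrl left 13 and PRC1cKO 14 (backgrounds 11.7% and 17.9%), and PRC2ctrl left 0 and PRC2cKO 15 (backgrounds 8.46% and 23.8%).

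Whether a domain stayed in 1 piece depends on the spacing of peaks in a list, which differed by list. The smallest gap between neighbouring peaks was 423 to 699 bp in the WT H3K27me3 lists, 1890 bp in PRC1cKO P7, 2075 bp in PRC1ctrl P7, 2472 and 2810 bp in PRC2cKO and PRC2ctrl, and 3006 and 3132 bp in PRC1ctrl and PRC1cKO at P6. A domain was called unbroken when 1 peak covered at least 90% of it. Shares of unbroken domains are therefore given for the peaks as deposited and after closing gaps of up to 3132 bp in each list (at one spacing), so that no list resolves finer gaps than another.

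As deposited, 40.4% of the domains were unbroken in WT at E18.5, 60.4% at P1 and 48.4% at P7 (backgrounds 26.9%, 40.0% and 44.9%). At one spacing the shares were 81.7% (exact 95% interval 78.1 to 84.9), 88.8% (85.8 to 91.3) and 71.6% (67.6 to 75.4), with backgrounds of 37.8%, 47.6% and 48.9%. Domains at E18.5 were thus mostly divided by short gaps, and those at P7 more often by gaps that remained after closing. In PRC1ctrl the share went from 68.2% at P6 to 29.2% at P7 (backgrounds 44.4% and 29.0%), and at one spacing from 69.0% to 46.0% (backgrounds 44.7% and 32.2%). PRC1cKO oocytes had 60.7% at P6 and 38.3% at P7 (backgrounds 42.0% and 28.5%), and 60.7% and 53.3% at one spacing (backgrounds 42.0% and 32.7%). In PRC2ctrl 91.2% were unbroken and in PRC2cKO 64.7% (backgrounds 52.2% and 28.4%), and 93.6% and 70.7% at one spacing (backgrounds 53.1% and 29.8%).

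Transcription factor domains and other domains changed in different order from list to list at P7. At one spacing, the 72 domains with a listed transcription factor gene were unbroken in 98.6% of cases at WT P1 (exact 95% interval 92.5 to 99.96) and 52.8% at WT P7 (40.7 to 64.7). The other 463 domains had 87.3% and 74.5% (70.3 to 78.4). In PRC1ctrl, 77.8% of the transcription factor domains were unbroken at P6 and 25.0% at P7 (15.5 to 36.6). In PRC1cKO they were unbroken in 75% at P6 and 77.8% at P7 (66.4 to 86.7). The other domains had 49.2% and 49.5% in PRC1ctrl and PRC1cKO at P7, but these were not all the same domains. Of the 463, 91 were unbroken in PRC1ctrl P7 only and 92 in PRC1cKO P7 only. Of the 72 transcription factor domains, 2 were unbroken in PRC1ctrl P7 only and 40 in PRC1cKO P7 only. Such switches were not counted over all P6 peaks. With the peaks as deposited, the transcription factor domains had 15.3% and 61.1% in PRC1ctrl and PRC1cKO at P7, and the other domains 31.3% and 34.8%.

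**Figure D4:**
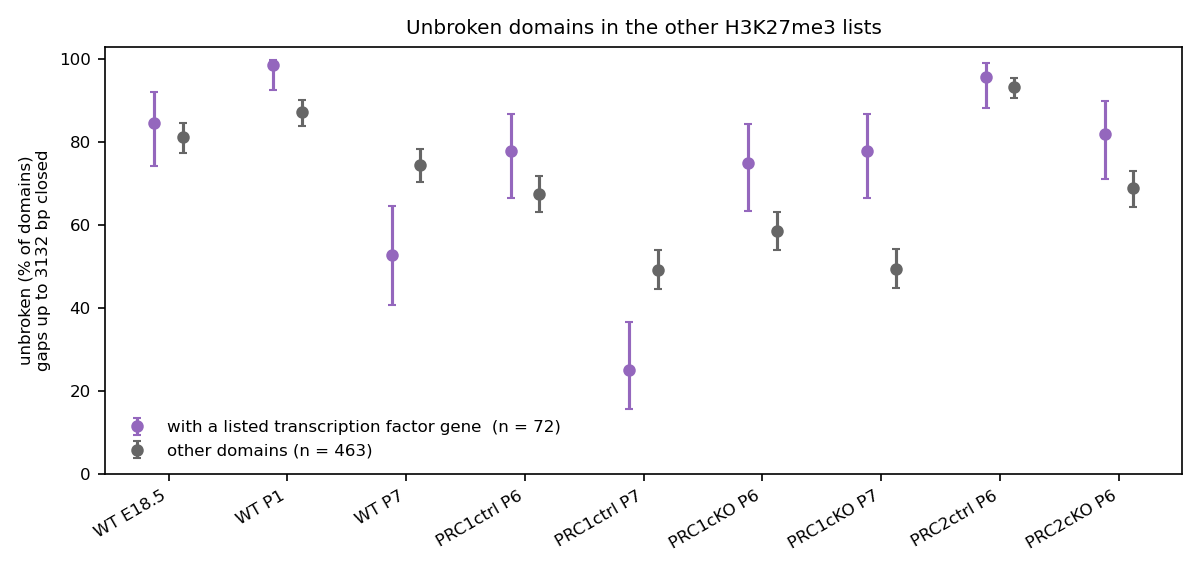
Percent of domains unbroken in each of the other 9 H3K27me3 lists after gaps up to 3132 bp were closed, for 72 domains with a listed transcription factor gene (purple) and 463 others (grey), with exact 95% intervals that cover counting error only. The purple points of WT P7 and PRC1ctrl P7 lie below the grey ones, and that of PRC1cKO P7 lies above.

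Covered length was compared next. From PRC1ctrl to PRC1cKO at P7, the covered share rose by at least 10 points in 41 of the 72 transcription factor domains and fell by as much in 1. With a step of 20 points, 19.4% of them rose. Of the other 463 domains 97 rose and 86 fell, and over all autosomal P6 peaks 33.1% rose and 24.9% fell. Among peaks of 20 to 50 kb, 55 of 108 with a listed transcription factor gene rose (50.9%) and 6 fell, against 1049 of 2978 without one that rose (35.2%) and 647 that fell, so the pattern was not limited to domains of 50 kb or more. The PRC1cKO P7 list covered less of the autosomes (440.7 Mb) than the PRC1ctrl P7 list (477.6 Mb). At P6 the same comparison gave 3 transcription factor domains that rose and 5 that fell, against 21 and 80 of the others (over all P6 peaks 21.2% rose and 26.2% fell). From P6 to P7, 42 of the 72 fell and 2 rose in PRC1ctrl (backgrounds 41.7% and 19.6%), and 4 fell and 5 rose in PRC1cKO (backgrounds 36.7% and 24.3%). The transcription factor domains were slightly wider (median 68.8 against 63.8 kb) and had more signal per base at P6 (17.0 against 14.0).

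The domains below, other than that of Foxp4, were picked after their values were seen. Foxp4, a forkhead gene, shares a domain with Mdfi, an inhibitor of myogenic factors (chromosome 17, 47819942 to 47939432). It was covered over 100% in WT E18.5 and P1 and in all 4 control and knockout lists of P6, over 61.2% in 8 pieces in WT P7, 38.2% in PRC1ctrl P7 and 94.9% in PRC1cKO P7. For Snai1 (chromosome 2, 167523478 to 167606142) the shares were 100% at E18.5 and P1 and at least 99.0% in the P6 lists, then 84.7% in WT P7, 39.7% in PRC1ctrl P7 and 85.9% in PRC1cKO P7. The Gsc domain (chromosome 12, 104443381 to 104515862) had at least 96.6% in every list before P7, then 85.3%, 52.3% and 93.3%. In all 3, PRC1ctrl P7 was the lowest of the 10 lists. That of Neurog1, a proneural gene (chromosome 13, 56245526 to 56342997), had 49.8%, 39.5% and 78.2% at P7. An exception was Ebf3 (chromosome 7, 137221445 to 137284612), with 96.1% and 100% in WT P7 and PRC1ctrl P7 but 72.0% and 63.1% in PRC1cKO at P6 and P7, and 67.0% at WT E18.5.

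The Hox domains took part with smaller changes. The Hoxc domain (chromosome 15, 102893938 to 103073425) was covered over 98.6%, 99.3% and 93.7% at WT E18.5, P1 and P7, 99.8% and 88.1% in PRC1ctrl at P6 and P7, and 99.3% and 98.6% in PRC1cKO. Its PRC2ctrl and PRC2cKO shares were 99.4% and 99.0%. The larger Hoxb domain (chromosome 11, 96229958 to 96386004) had 100%, 100% and 89.2% in WT, 97.1% and 86.9% in PRC1ctrl, 98.7% and 100% in PRC1cKO and 100% in both PRC2 lists. That of Hoxd1 to Hoxd8 (chromosome 2, 74707445 to 74773963) had 100%, 100% and 88.3%, then 100% and 84.2%, 98.6% and 100%, and 100% in both. In these 3 the PRC1ctrl P7 list was the lowest and its PRC1cKO partner was at or above 98.6%. The Hoxb13 domain (chromosome 11, 96143742 to 96223139) was lowest in PRC1ctrl P6, at 76.3%, with 84.9% and 97.0% in PRC1ctrl and PRC1cKO at P7. Its remaining shares were 87.3%, 99.7% and 96.4% in WT E18.5, P1 and P7, 87.6% in PRC1cKO P6, and 99.5% and 98.2% in the PRC2 lists.

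The gaps in the transcription factor domains were then set against the other lists. In WT P7, 45 of the 72 held 92 inner gaps with a median of 2.86 kb. Of the bases in these gaps, 12.9% were under H2AK119ub at P7, against 57.4% of the domains as a whole, and 54.2% at P6, against 90.1%. PRC1cKO P7 H3K27me3 peaks covered 90.8% of the same bases, against 95% of the domains as a whole, and those of PRC1ctrl P7 39.3%, against 82.9%. In the other domains, H2AK119ub was likewise low in WT P7 gaps. It covered 12.6% of their bases at P7, against 58.3% of the domains, and 63.6% at P6, against 93.4%. PRC1ctrl P7 H3K27me3 peaks covered 28.3% of these bases, against 85.7%. PRC1cKO P7 peaks covered 61.7%, against 86.2%. Of the WT P7 gaps that could be checked, 1 of 91 in transcription factor domains and 3 of 355 in the others held an annotated start site.

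At one spacing, the widest domains were less often unbroken than the narrowest in WT P7 and the PRC1ctrl and PRC1cKO lists, but not elsewhere. At one spacing, 75% of the 364 domains of 50 to 75 kb and 57.7% of the 26 of 150 kb or more were unbroken in WT P7 (54.4% and 23.1% as deposited). The same classes had 72.8% and 38.5% in PRC1ctrl P6, 61.8% and 34.6% in PRC1cKO P6, and 54.7% and 11.5% in PRC1ctrl P7. In PRC1cKO P7 they were closer, at 55.2% and 50%. At one spacing the order was reversed in WT E18.5 (79.4% and 84.6%), WT P1 (86.8% and 92.3%), PRC2ctrl (93.4% and 100%) and PRC2cKO (71.2% and 76.9%). As deposited it was reversed only in PRC2ctrl (91.8% and 92.3%). The widest were then lower in WT E18.5 (42.6% and 38.5%), WT P1 (61.3% and 50%) and PRC2cKO (64.3% and 61.5%). The 10 widest stayed covered all the same. Irf8, the widest at 276.4 kb, had between 94.6% (PRC1cKO P6) and 100% (PRC2ctrl) in the other H3K27me3 lists. Rbfox3, which encodes the neuronal splicing factor NeuN (238.7 kb), had between 92.8% (PRC1cKO P6) and 100%. The domains of Zbtb16, a zinc finger repressor, Cdh22, a cadherin, Kcna1 with Kcna5, and the domain of 201.4 kb at Hrh1, a histamine receptor gene, had at least 87.6% in every H3K27me3 list, as did that of Foxc2 and Foxl1. Lower values were seen at Med13l, a Mediator subunit gene (210.5 kb), with 79.2% in PRC1ctrl P6, 77.5% in PRC1ctrl P7 and 84.2% in 9 pieces in WT P7. A gene-free domain 152.9 kb from the Med13l gene (199.7 kb wide, chromosome 5, 118918321 to 119118040) had 72.5% and 67.4% in PRC1ctrl and PRC1cKO at P6. Pax7, a gene of muscle stem cells, and a domain near Trabd2b (chromosome 4, 114619258 to 114695439) were the other domains with most pieces in WT P7, at 89.2% and 80.1% covered.

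Some domains were touched by still wider H3K27me3 peaks in other lists, at growing and non-growing stages. A peak at least 1.5 times as wide as the domain touched 42, 87 and 93 domains in WT E18.5, P1 and P7. Such peaks touched 99 and 52 in PRC1ctrl at P6 and P7, 96 and 43 in PRC1cKO, and 197 and 84 in PRC2ctrl and PRC2cKO. These counts are for peaks as deposited, and the smallest gap between peaks, which bears on peak width, differed by list. The same was not counted at one spacing or over all P6 peaks. In WT P7, the 54.6-kb domain in Tns1, a focal adhesion gene, lay in a peak of 252 kb. Those of Inf2, a formin gene, and of Tmem179 with A530016L24Rik shared one of 251.5 kb. The widest WT P7 peak over any domain, of 261 kb, was that over Rbfox3, not much wider than the domain itself. As deposited, 25 domains (4.67%) were unbroken in all 10 H3K27me3 lists, against 1.26% of all P6 peaks, and at one spacing 70 (13.1%), against 2.26%. Among the 25 were those of En1, Runx3, Wnt3 with Wnt9b, Kcna6, the insulin-secretion channel genes Abcc8 and Kcnj11, and Gas8.

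Nearly all domains were still under peaks of the PRC2cKO list, with some of them covered over a smaller part. Signal was not compared between lists, so the level of the mark in PRC2cKO oocytes is not given by these shares. From PRC2ctrl to PRC2cKO at P6, the covered share fell by at least 10 points in 100 of 535 domains (18.7%, exact 95% interval 15.5 to 22.3) and rose in 1. Over all autosomal P6 peaks 46.2% fell and 10.5% rose. The median share was 99.97% and 96.6%, and 3 domains were under 50% covered. For scale, between the control lists PRC2ctrl and PRC1ctrl at P6, 99 domains fell and 4 rose (backgrounds 30.5% and 18.9%), so that nearly as many domains fell between 2 controls of different genotype as between control and knockout. The PRC2cKO list covered 399.5 Mb of the autosomes and the PRC2ctrl list 525.8 Mb. Of the 72 transcription factor domains 6 fell from PRC2ctrl to PRC2cKO, and 8 from PRC2ctrl to PRC1ctrl.

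The lowest PRC2cKO shares were in a gene-free domain near Trib1 (chromosome 15, 59716673 to 59767535; 84.2% in PRC2ctrl, 40.4% in PRC2cKO), in Mylk, a myosin light chain kinase gene (89.0% and 47.4%), and over Shh, the hedgehog ligand gene (71.5% and 47.9%). The domain near the chemokine gene Ccl1 (96.0% and 52.4%) and that of Ctdspl, a phosphatase gene (91.9% and 55.1%), followed. Most of them were also low elsewhere. Mylk had 48.3% and 45.1% at WT E18.5 and P1, 100% in WT P7, PRC1ctrl P6 and PRC1ctrl P7, and 61.0% and 38.0% in PRC1cKO at P6 and P7. Shh had 83.7%, 87.6% and 81.1% in WT, 90.8% and 41.0% in PRC1ctrl and 86.4% and 52.7% in PRC1cKO. All 5 had a P6 signal per base of 13.0 or less.

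A smaller share of transcription factor domains, which were 13.5% of all domains, than of other domains fell in PRC1cKO. At P6, 85 domains fell (15.9%) and 24 rose (4.49%) from PRC1ctrl to PRC1cKO (backgrounds 26.2% and 21.2%). Of the transcription factor domains 5 fell (6.94%), against 17.3% of the others. At P7, 87 fell (16.3%) and 138 rose (25.8%), with backgrounds of 24.9% and 33.1%. Of the transcription factor domains 1 fell (1.39%), against 18.6% of the others. At P6 the lowest PRC1cKO shares were near Ccl1 (62.1% in PRC1ctrl, 13.8% in PRC1cKO), in Tns1 (97.9% and 27.5%), in Dab2ip, a GTPase regulator gene (76.9% and 36.1%), in Ctdspl (71.7% and 40.4%) and in Grik3, a glutamate receptor gene (100% and 44.7%). Tns1 was covered over 40.5% and 34.2% in WT E18.5 and P1, 100% in WT P7 and PRC1ctrl P7, 53.9% in PRC1cKO P7 and 100% and 62.1% in the PRC2 lists. Dab2ip had a like profile, at 57.8% and 61.1%, 100% and 100%, 50.8%, and 93.0% and 56.7%. Both were thus low in the WT lists before P6 and in the knockouts. H2AK119ub covered at least 85.5% of both in all 6 lists.

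At P7 the lowest PRC1cKO shares were in Macrod1 and Flrt1 (chromosome 19, 7108292 to 7177077; 71.6% in PRC1ctrl, 6.4% in PRC1cKO), Chst11, a chondroitin sulfotransferase gene (95.4% and 10.1%), Ctdspl (55.3% and 15.0%), Cmip (92.3% and 19.0%) and Ptp4a3 with Gpr20 (100% and 34.8%). In WT P7 these 5 had between 95.1% and 100%. Domains within the body of 1 gene, such as those in Chst11 and Cmip, were unbroken in 35.5% in PRC1ctrl P7 and 23.7% in PRC1cKO P7, and the remaining domains in 28.1% and 40.7%. At one spacing these shares were 59.2% and 42.1%, and 43.8% and 55.1%.

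H2AK119ub lay over most domains until P6 and became patchy at P7. At least 50% of a domain was under H2AK119ub in 98.1% of domains at WT E18.5, 96.6% at P1 and 98.9% at P6 (backgrounds 49.5%, 50.9% and 56.4%). At P7 it was 64.7% (346 of 535, exact 95% interval 60.5 to 68.7; background 21.2%). The median covered share went from 97.1% at P6 to 59.6% at P7, and the median number of pieces from 2 to 8. The smallest gap between peaks was 812 bp in the P6 list and 257 bp in the P7 list, and at one spacing the mean number of pieces was 1.45 and 3.26. From P6 to P7, 490 domains fell by at least 10 points and 0 rose, against 54.3% and 5.33% of all P6 peaks. As deposited, 1 domain was unbroken at P7 (background 3.76%), against 44.9% at P6 (background 42.4%), 27.5% at P1 (background 30.8%) and 36.3% at E18.5 (background 32.0%). At one spacing the share was 14.8% at P7 (background 9.40%), 67.9% at P6 (background 45.6%), 56.8% at P1 (background 36.0%) and 66.0% at E18.5 (background 37.0%). The P7 list covered 237.2 Mb of the autosomes and the P6 list 703.0 Mb. The P6 list was also trimmed to the covered length of the P7 list, highest total signal first. Of the domains, 84.3% were then kept, against 64.7% at P7. Total signal is summed over the width of a peak, so this order favours wide peaks. The effect of list length apart from peak width was not tested. H3K27me3 kept 97.9% of the same domains at P7.

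**Figure D5:**
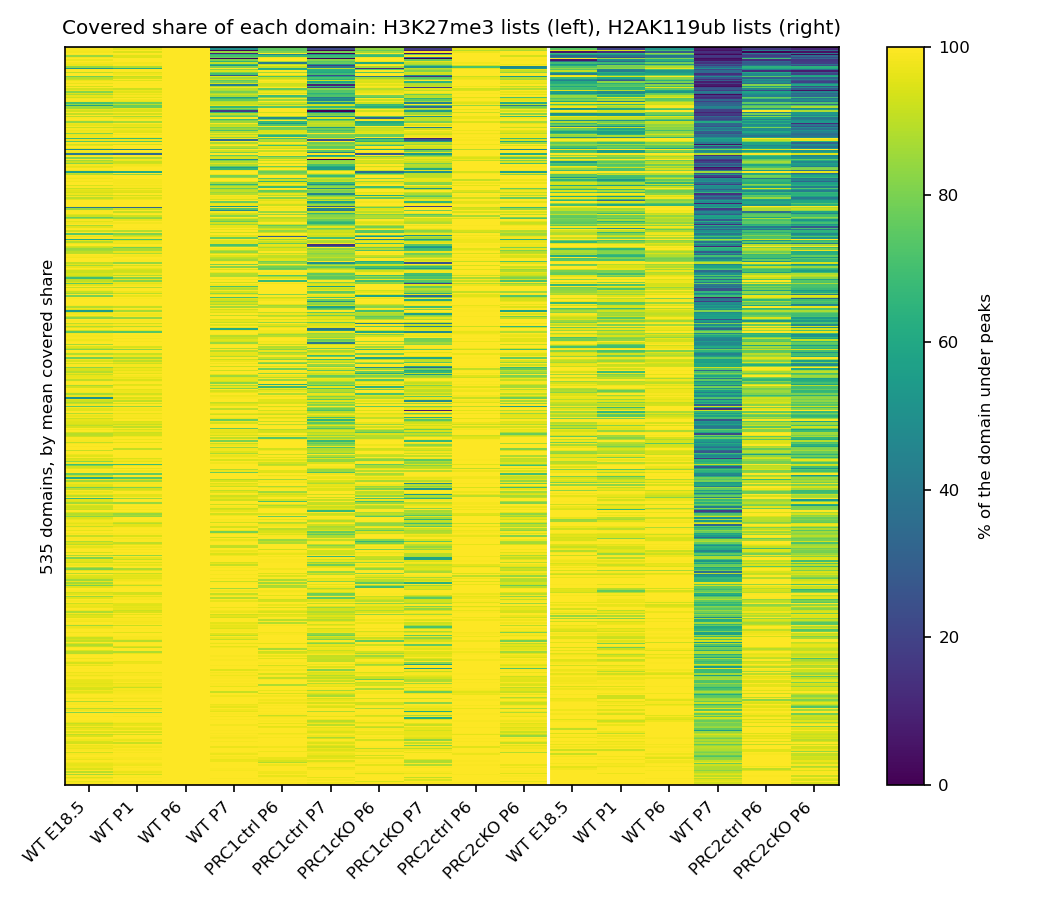
Covered share of each of the 535 domains (rows, ordered by their mean) in the 16 lists (columns), from 0% (dark) to 100% (yellow), H3K27me3 left and H2AK119ub right of the white line. The WT P7 H2AK119ub column is the darkest, with a median of 59.6%.

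H2AK119ub covered less of the domains in PRC2cKO than in PRC2ctrl. Between PRC2ctrl and PRC2cKO at P6, 202 of 535 domains fell by at least 10 points (37.8%, exact 95% interval 33.6 to 42.0) and 15 rose, against 26.0% and 11.2% of all P6 peaks. PRC2ctrl kept 91.8% (background 43.0%) and PRC2cKO 85.4% (background 35.7%), with median shares of 87.9% and 78.6%. The WT and PRC2ctrl lists of P6 differed as much, with 226 domains that fell and 3 that rose (backgrounds 31.0% and 6.47%). Covered autosomal length was 703.0 Mb in WT, 481.6 Mb in PRC2ctrl and 387.5 Mb in PRC2cKO.

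The domains with the lowest H2AK119ub shares at WT P6 differed in how low they were at other stages. H2AK119ub covered 24.2%, 7.7%, 22.8% and 0% of this Skap1 domain (96516131 to 96572396) at the 4 WT stages, and 32.9%, 37.2%, 37.2% and 17.0% of another one in the same gene. The domain of the Schlafen genes Slfn8 and Slfn9 (chromosome 11, 82978320 to 83041264) had 5.9%, 13.0%, 30.2% and 13.7% at the 4 WT stages, 0% in PRC2ctrl and 4.5% in PRC2cKO, while its H3K27me3 share was at least 79.3% in every list. Arpp21, a neuronal phosphoprotein gene, and Adcy2, an adenylyl cyclase gene, followed with 39.4% and 43.7% at WT P6. Arpp21 was higher earlier, at 62.3% and 65.2% at E18.5 and P1, and Adcy2 had 47.3% and 26.9%. In the transcription factor domains the median H2AK119ub share at P6 was 92.4%, and in the others 97.5%. En1 had 84.9%, 70.3%, 92.0% and 52.0% at the 4 WT stages, although its H3K27me3 stayed at or above 98.2%.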

How the data were processed

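CUT&Tag for H3K27me3 and H2AK119ub was deposited as 1 list of peaks for each of 16 groups of 2 samples. For each peak the authors deposited its position on mm10 and a total signal summed over its bases, in whole numbers; signal per base is that sum divided by the width. The submitters' processing notes name Picard 3.0.0, SAMtools, deepTools, Bowtie2 and Trim Galore 0.6.10, without roles. Not given in the sources used here were the peak caller, its threshold and joining distance, the pooling of samples and any spike-in scaling. Signal was not compared between lists, and sequencing depth is unknown, so intervals (exact Clopper-Pearson, 95%) cover the counting of domains only.

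Covered share, pieces and longest piece of each domain were computed with Python 3.11.15, numpy 2.4.6, pandas 2.3.3 and scipy 1.17.1. The computation was tested on simulated data, where 600 of 600 regions returned their known values. A domain was kept at 50% or more covered and unbroken with 1 peak over at least 90%; a rise or fall was a change of at least 10 points. With 1 list per group there was no test. Gene positions, miRNAs and promoter sequences came from RefSeq tables of GRCm38.p6, the same assembly as mm10; the promoter table was used without chromosome 18.

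The domains and gene lists were chosen with earlier results of these data known. The rule for named domains took the 10 widest, those with Hox genes, the 5 lowest in WT P7, PRC2cKO P6, PRC1cKO P6, PRC1cKO P7 and WT P6 H2AK119ub, the 5 in most pieces and the 5 under the widest peaks in WT P7; some of these are not reported here. Alternatives changed the width, the kept and unbroken thresholds, the step, the joining of peaks and the length of the lists. The common spacing, the joining of WT P6 peaks before the width rule, the step of 20 points and the repeat on transcription factor domains were chosen after seeing the data.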

Additional observations from a re-analysis of the deposited data

Results flagged for a closer look

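The share of domains unbroken as deposited differed between the PRC1 groups in opposite directions at the 2 stages: PRC1cKO minus PRC1ctrl was -7.48 percentage points at P6 (60.7% against 68.2%) and 9.16 points at P7 (38.3% against 29.2%). After gaps of up to 3132 bp were closed, the shares were 60.7% and 69.0% at P6 and 53.3% and 46.0% at P7. The difference between the stages was not tested, since each group has 1 list.

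The X chromosome, which was not analysed for coverage, held 19 H3K27me3 peaks of 50 kb or more in the WT P6 list, the widest of 113.9 kb.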

How the results depend on the processing

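Of 246 values under the alternatives, 140 moved by less than their counting interval and 106 by more; those are given here, as percent of domains. Lists run in the order WT E18.5, P1 and P7, PRC1ctrl P6 and P7, PRC1cKO P6 and P7, PRC2ctrl and PRC2cKO, unless named. With kept at 25% covered, the H3K27me3 lists other than PRC2ctrl kept 100%, 100%, 99.3%, 100%, 97.8%, 99.8%, 98.1% and 100%, and H2AK119ub (WT E18.5, P1, P6, P7, PRC2ctrl, PRC2cKO) 99.4%, 99.4%, 99.8%, 89.0%, 98.5% and 97.4%. With kept at 75% they kept 97.0%, 98.1%, 93.8%, 95%, 82.8%, 89.9%, 83.9% and 94.8%, and H2AK119ub 86.5%, 83.6%, 93.6%, 28.0%, 73.1% and 54.0%. With unbroken at 75% under 1 peak, the shares were 55.0%, 73.6%, 58.3%, 76.6%, 38.7%, 73.1%, 49.5%, 95.5% and 77.8%, and 76.4% for transcription factor domains in PRC1cKO P7. At a minimum width of 75000 bp (171 domains), WT E18.5, P1, PRC1cKO P6, PRC2cKO and WT P6 H2AK119ub kept 100%, PRC1cKO P7 98.2%, and WT P1 and P7 H2AK119ub 98.2% and 69.0%. Unbroken were 35.7% in WT E18.5, 35.7% in WT P7, 60.2% and 16.4% in PRC1ctrl P6 and P7 and 32.7% in PRC1cKO P7; 11.1% fell in PRC2cKO, 11.7% in PRC1cKO P6 and 11.1% in PRC1cKO P7. At 40000 bp (890 domains) 22.9% fell in PRC2cKO.

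With the other lists joined across 2000 bp, 72.3% were kept in WT P7 H2AK119ub, 72.3%, 79.3% and 62.1% were unbroken in WT E18.5, P1 and P7, and 45.8% of transcription factor domains in WT P7. At one spacing, 76.3% were kept in WT P7 H2AK119ub, and unbroken were 81.7%, 88.8% and 71.6% in WT, 46.0% in PRC1ctrl P7, 53.3% in PRC1cKO P7, 93.6% and 70.7% in PRC2ctrl and PRC2cKO, and 52.8% and 77.8% of transcription factor domains in WT P7 and PRC1cKO P7; 22.1% rose in PRC1cKO P7 and 29.7% fell in PRC2cKO H2AK119ub. Lists were also trimmed to the shortest of the mark, highest total signal first, an order that favours wide peaks. H2AK119ub then kept 76.4%, 80.9% and 84.3% at WT E18.5, P1 and P6, 79.3% in PRC2ctrl and 74.6% in PRC2cKO. With a step of 20 points, 6.17% fell in PRC2cKO, 4.67% in PRC1cKO P6, 8.79% in PRC1cKO P7 and 11.8% in PRC2cKO H2AK119ub, and in PRC1cKO P7 10.1% of all and 19.4% of transcription factor domains rose. With WT P6 peaks joined across 2000 bp before the width rule (924 domains), WT P7 kept 96.3%, PRC1ctrl P7 92.2%, PRC1cKO P6 96.6%, PRC2cKO 97.9% and H2AK119ub 94.2%, 93.3%, 97.3%, 55.4%, 87.9% and 78.8%. Unbroken were then 17.6%, 32.7%, 31.6%, 49.8%, 17.5%, 42.5%, 22.2%, 74.8% and 38.0%, and 48.4% of transcription factor domains in PRC1cKO P7; 35.8% fell in PRC2cKO, 21.0% in PRC1cKO P6 and 42.3% in PRC2cKO H2AK119ub. Causes of these shifts were not tested. No paired analysis was possible because each group has 1 list for both samples, so no sample could be left out either. Depth is unknown, so a stretch without a peak is not shown to lack the mark.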
